A study of Mus musculus with 48 samples.

Results

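The aorta of Efemp2 knockout (KO) embryos was compared with that of wild-type (WT) embryos on embryonic day 17.5 (E17.5). The comparison used 8 of the 48 arrays of the series, namely those whose titles name the Efemp2 model and E17.5. They form 4 groups of 2 arrays, KO and WT in the ascending aorta (AA) and KO and WT in the descending aorta (DA), so each genotype had 4 arrays. Mice of both genotypes were on the C57BL/6 strain, and frozen tissues of one kind were pooled by 8 for each array. The labels name the genotypes as Efemp2 KO and WT and give neither the allele nor the sex of the embryos. RNA was amplified from 5 ng and hybridised to Affymetrix arrays. The rest of the series holds Eln knockouts (C57BL/6) and Lox knockouts (B6 albino) at the same age, each with its own WT, and all 3 models on postnatal day 1 (P1).

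Efemp2 encodes fibulin-4, a glycoprotein that vascular smooth muscle cells and fibroblasts secrete into the wall. As background, fibulin-4 binds tropoelastin and lysyl oxidase, the copper enzyme that Lox encodes, and brings them together so that elastin is cross-linked on microfibrils into the elastic lamellae of the arteries. Mice without it have broken elastic fibres, tortuous and widened arteries, and die around birth. Elastin itself, the product of Eln, is made in large amounts by aortic smooth muscle before birth.

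All values are log2 array signals, so a difference of 1 is a 2-fold change in signal, and levels are not compared between genes. A difference is KO less WT, averaged over AA and DA with the location as a block unless a location is named, and its error is the standard error from limma with n = 4 arrays per genotype. A gene was called when its p-value, adjusted by Benjamini-Hochberg over the 12049 tested genes, was under 0.05. A gene was tested when 1 of the 4 group means reached 4.99, the median of the probe sets with 1 gene symbol. The same contrast was also taken in a fit to all 48 arrays, whose spread comes from all 24 groups. Calls there are named as calls of the 48-array fit. The labels do not say whether AA and DA pools of one number came from the same embryos. If they did, the 4 arrays of a genotype rest on 2 sets of embryos, and with genotype and number as a random block 6 genes were called as higher and 3 as lower, in place of the 9 and 4 given below. Igfbp2, Clec4d, Clec4n and Trav9d-3 were then not called (adjusted p = 0.0604, 0.055, 0.0544 and 0.0544, limma). The replicates are separate pools, and p-values measure the spread between these pools. In pooled tissue, fewer cells of a type and less RNA per cell cannot be told apart.

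The labels were checked first. The platform table names Efemp2 for none of the probe sets, so the deleted gene could not be checked by name. Of the probe sets without a single symbol, 1 was far lower on every Efemp2 KO array than on the other arrays of the series. This probe set was picked by its call between the genotypes on these same 8 arrays, so on them it is no separate check of the labels. Which transcript it measures is not known from the tables used here. Location matched the labels, since Hoxc6, a posterior Hox gene, lay at 6.10 to 6.42 in DA and 2.86 to 3.86 in AA. Smooth muscle markers were present on each array, with Acta2, smooth muscle actin, at 11.66 to 12.15 in WT and 11.82 to 12.06 in KO. The array of WT AA replicate 1 stood apart. Its Eln signal was 9.69 against 11.70 in replicate 2, Actb, cytoplasmic actin, was 6.53 against 9.65, and Reg3g, a secreted lectin of epithelia, was 9.74 against 3.44. Its 2 WT AA arrays differed by over 1 in 799 of the 12049 genes (6.63%), against 147 to 282 genes between the replicates of the other groups. Heart muscle markers were highest on KO AA replicate 2, where Nppa, the atrial natriuretic peptide, was 11.13 against 6.72 in replicate 1. Neuron markers were highest on replicate 2 of both DA groups, with Th, the enzyme of catecholamine synthesis, at 8.39 in WT and 8.19 in KO against 6.12 and 6.51 in replicate 1. Platelet markers were highest on KO AA replicate 1, where Gp9, a subunit of the platelet receptor for von Willebrand factor, was 9.62 against 7.26 in replicate 2. The part of these other tissues in the results was not tested, beyond the values given without WT AA replicate 1 or KO AA replicate 1.

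**Figure D1:**
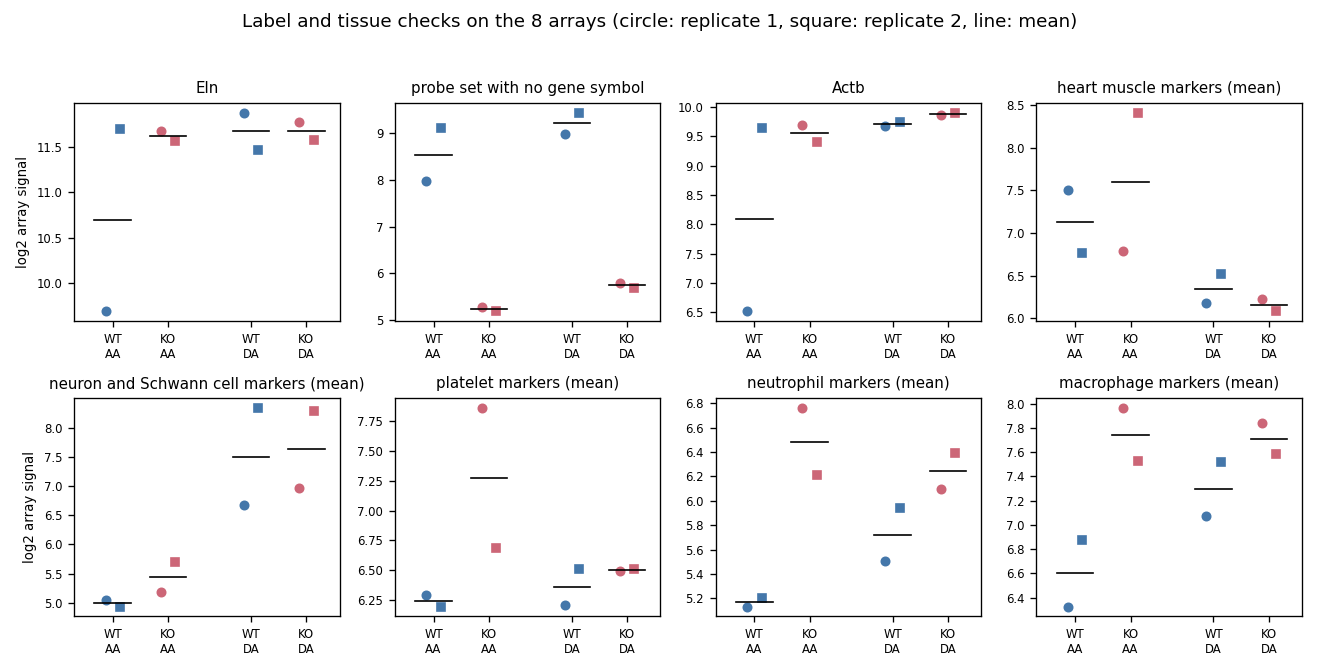
Log2 array signal of Eln, of the probe set without a gene symbol that separated the genotypes, of Actb, and the mean signal of the tested members of 5 marker lists, on each of the 8 arrays (circles replicate 1, squares replicate 2, lines the mean of the 2). WT AA replicate 1 has the lowest Eln and Actb, KO AA replicate 2 the highest heart muscle mean at 8.41, KO AA replicate 1 the highest platelet mean at 7.86, and replicate 2 of both DA groups the highest neuron means.

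The largest rises in the KO aorta were in genes of the acute phase, of chemokine signalling and of myeloid cells, together with Col8a1, Igfbp2 and Hmox1. The 8 arrays called 9 genes as higher (0.0747% of those tested) and 4 as lower (0.0332%). The rises were Saa3, Serpina3n, Lilrb4a, Ccl2, Hmox1, Col8a1, Igfbp2, Clec4d and Clec4n, from 1.35 to 2.92. The falls were Cdh12, Slc26a7, Trav9d-3 and Npy1r, between -1.14 and -1.87. For each of these genes but 1, Npy1r, the lowest array of the higher genotype lay above the highest array of the other over AA and DA, and for Npy1r the genotypes did not overlap within either location. The genes were called on these same arrays, so their separation is not further support. The share over all tested genes was not counted, and some genes without a call, such as Loxl4, Fbln1 and Hmcn1, did not overlap either. With weights that count an unlike array less, the 8 arrays called 204 genes (1.69%), 124 higher (1.03%) and 80 lower (0.664%). The 48-array fit called 135 genes (1.12%), 97 higher (0.805%) and 38 lower (0.315%), and all 13 genes were among them. All 97 were higher, and all 38 lower, in both AA and DA. Calling genes on the mean of AA and DA favours those with the same sign at both, so this is not separate support. Without WT AA replicate 1 the 8-array fit called 10 genes as higher and 6 as lower, and Lilrb4a, Clec4d and Clec4n were no longer called (adjusted p = 0.0621, 0.0798 and 0.0738, limma). Leaving out any 1 of the 8 arrays left 2 to 10 higher and 0 to 6 lower, and Hmox1 and Col8a1 alone were called each time.

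**Figure D2:**
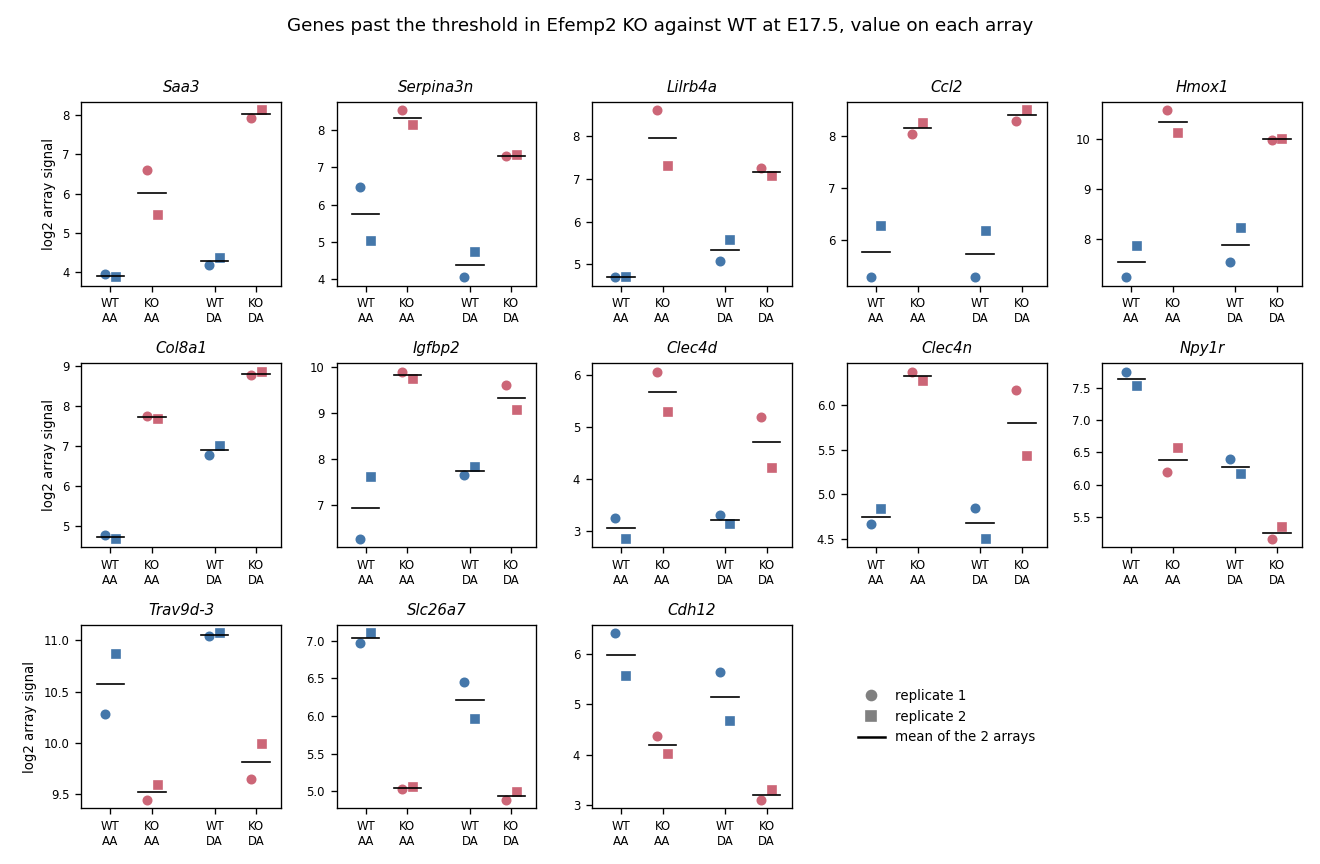
Log2 array signal of the 13 called genes on each of the 8 arrays (blue WT, red KO, circles replicate 1, squares replicate 2, lines the mean of the 2). In each panel both KO arrays of a location lie on the same side of both WT arrays of that location.

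Saa3, Serpina3n and Ccl2, from the list of acute phase and inflammation genes, rose. Saa3, a serum amyloid A protein that many tissues make in inflammation, was 3.95 and 3.87 in WT AA, 6.59 and 5.44 in KO AA, 4.19 and 4.38 in WT DA, and 7.93 and 8.12 in KO DA. Its KO values were highest in DA, and the 2 KO AA arrays differed from each other by more than the WT arrays did. Saa3 rose by 2.92 ± 0.34 (adjusted p = 0.0125, limma). Its WT means, like those of Clec4d and Clec4n, lay under the filter of 4.99 at both locations, so these 3 genes were tested through their KO groups and no fold is given. Serpina3n, an acute phase inhibitor of serine proteases, was 6.46 and 5.02 in WT AA, 8.53 and 8.14 in KO AA, 4.05 and 4.73 in WT DA, and 7.29 and 7.32 in KO DA. WT AA replicate 1 was the highest WT array, and it lay below all 4 KO arrays. The gene rose by 2.75 ± 0.29 (adjusted p = 0.00788), and by 3.08 without that array. Ccl2, the chemokine that draws monocytes, was 5.27 and 6.26 in WT AA, 8.04 and 8.25 in KO AA, 5.28 and 6.16 in WT DA, and 8.29 and 8.49 in KO DA. The 4 KO arrays lay close together, and replicate 2 was higher than replicate 1 in each WT group. Ccl2 rose by 2.52 ± 0.25 (adjusted p = 0.00569).

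The promoter windows of the Saa3 and Serpina3n genes are shown because these were the largest rises, and that of Col8a1 because it was the gene called at both locations. They run from 250 bases before to 50 bases after the start of the gene in RefSeq (GRCm38.p6), and such windows were found for 7 of the 13 called genes. Capitals mark a match to the C/EBP motif TTGCNNAA, on either strand.

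Saa3, chr7:46715627-46715926, minus strand: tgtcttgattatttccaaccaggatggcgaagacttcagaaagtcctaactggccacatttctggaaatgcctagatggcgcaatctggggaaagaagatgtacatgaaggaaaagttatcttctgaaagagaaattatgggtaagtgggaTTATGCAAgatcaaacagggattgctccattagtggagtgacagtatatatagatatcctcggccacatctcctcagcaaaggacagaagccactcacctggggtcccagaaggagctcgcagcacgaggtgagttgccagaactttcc

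Serpina3n, chr12:104406458-104406757, plus strand: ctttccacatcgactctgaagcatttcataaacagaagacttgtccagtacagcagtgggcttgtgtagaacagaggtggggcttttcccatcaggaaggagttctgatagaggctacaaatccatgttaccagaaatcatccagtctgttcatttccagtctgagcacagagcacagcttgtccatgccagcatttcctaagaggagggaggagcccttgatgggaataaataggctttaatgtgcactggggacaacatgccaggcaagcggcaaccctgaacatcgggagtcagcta

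Col8a1, chr16:57754688-57754987, minus strand: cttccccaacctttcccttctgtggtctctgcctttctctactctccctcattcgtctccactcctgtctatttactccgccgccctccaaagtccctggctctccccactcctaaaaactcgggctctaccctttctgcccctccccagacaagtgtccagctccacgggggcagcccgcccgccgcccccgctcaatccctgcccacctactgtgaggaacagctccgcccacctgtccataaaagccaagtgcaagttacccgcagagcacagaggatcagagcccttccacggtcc

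The search also covered AP-1 (TGANTCA), NF-kB, STAT (TTCNNNGAA) and the CArG box, each on both strands. The Saa3 window held 1 match, to C/EBP, which begins at -99 relative to the start, and the windows of Serpina3n and Col8a1 held none of the 5. Of all 32851 windows of this length, 10.8% held the C/EBP letters, 7.81% those of AP-1, 0.411% NF-kB, 8.3% STAT and 1.63% a CArG box. A match is a string of letters and not a measured binding site.

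The other genes of the acute phase list were Ptgs2, Ccl7, Tnfaip6, Osmr and further cytokines and plasma proteins. Of its 22 genes 20 had a probe set and 12 were tested, while 8 did not reach the filter. Of the tested genes 3 reached it in KO alone and so had to differ upwards. Over all 20 genes, without the filter, 19 differences were positive and the median was 0.76, against -0.02 over all 22180 genes, while over all tested genes it was -0.03. The 8 arrays called 3 of the tested genes as higher (against 0.0747% of all tested genes) and the 48-array fit 6 (against 0.805%). The list was chosen with earlier results of these data known, so these counts are not an independent test. Without WT AA replicate 1 the 48-array fit called 4. Ptgs2, the inducible cyclooxygenase of prostaglandin synthesis, was 4.01 and 4.15 in WT AA, 6.82 and 5.79 in KO AA, 3.88 and 3.44 in WT DA, and 5.59 and 4.67 in KO DA. Its difference of 1.85 ± 0.29 missed the threshold in the 8 arrays (adjusted p = 0.0616) and passed in the 48-array fit (adjusted p = 0.00162). Tnfaip6, a hyaluronan-binding protein of inflamed tissue, differed by 0.87 ± 0.21, and Osmr, a receptor subunit for oncostatin M, by 0.78 ± 0.15. Both were called by the 48-array fit (adjusted p = 0.0491 and 0.0413) and by it no longer without WT AA replicate 1 (adjusted p = 0.145 and 0.0677). Ccl7, a second monocyte chemokine, differed by 1.11 ± 0.17 and passed in neither fit (adjusted p = 0.0616 and 0.0988).

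Among receptors of myeloid cells Lilrb4a, Clec4d and Clec4n rose. Lilrb4a, an inhibitory receptor of macrophages and mast cells, was 4.69 and 4.70 in WT AA, 8.62 and 7.31 in KO AA, 5.08 and 5.57 in WT DA, and 7.26 and 7.08 in KO DA. KO AA replicate 1 was the highest array, and each KO array lay above every WT array. The gene rose by 2.56 ± 0.34 (adjusted p = 0.0255, limma). Clec4d, a C-type lectin receptor of monocytes and neutrophils, was 3.25 and 2.85 in WT AA, 6.07 and 5.29 in KO AA, 3.31 and 3.13 in WT DA, and 5.19 and 4.22 in KO DA, and rose by 2.06 ± 0.30 (adjusted p = 0.0445). Clec4n, the related receptor dectin-2, was 4.66 and 4.84 in WT AA, 6.38 and 6.28 in KO AA, 4.85 and 4.50 in WT DA, and 6.17 and 5.43 in KO DA, and rose by 1.35 ± 0.19 (adjusted p = 0.0428). In both, replicate 1 was the higher KO array at each location. Among macrophage markers 15 of 16 were tested, all 15 with a positive difference, 1 of them through KO alone, and 0 called by the 8 arrays (0.108% of all tested genes were called in either direction) and 3 by the 48-array fit (0.805% of all tested genes as higher). Their median was 0.74, but 0.44 without WT AA replicate 1. The 3 were Itgam, an integrin chain of myeloid cells, at 1.76 ± 0.34 (adjusted p = 2.13e-05 in the 48-array fit), Lyz2, lysozyme, at 1.46 ± 0.27 (0.00239), and Cd68, a lysosomal protein, at 1.26 ± 0.29 (0.00837, and 0.0735 without WT AA replicate 1). The defining markers Ptprc, Csf1r and Adgre1 differed by 0.75 ± 0.22, 0.49 ± 0.26 and 0.45 ± 0.21 and passed in neither fit. Of the neutrophil markers 9 of 11 were tested, 2 of them through KO alone. All 11 with a probe set were positive, with a median of 0.86, 0 were called by the 8 arrays and 4 by the 48-array fit (against 0.805% of all tested genes). S100a8, a calcium-binding protein of neutrophils, was 7.71 and 7.77 in WT AA, 10.46 and 9.74 in KO AA, 7.92 and 9.06 in WT DA, and 9.48 and 9.71 in KO DA. S100a8 differed by 1.74 ± 0.32 (adjusted p = 0.0917, and 0.0208 in the 48-array fit) and its partner S100a9 by 1.49 ± 0.37 (0.246 and 0.0367). Csf3r and Cxcr2, receptors for a granulocyte growth factor and for chemokines, differed by 0.86 ± 0.23 and 1.40 ± 0.30 and were called by the 48-array fit only (adjusted p = 0.00837 and 0.000189). Of these 4, Cxcr2 alone was still called by the 48-array fit without WT AA replicate 1.

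The mean level of each list was also taken on each array. The mean neutrophil signal was 5.13 to 5.20 in WT AA and 6.21 to 6.76 in KO AA, and 5.50 to 5.94 in WT DA and 6.10 to 6.39 in KO DA. The mean macrophage signal was 6.33 to 6.87 and 7.53 to 7.96 in AA, and 7.07 to 7.52 and 7.58 to 7.84 in DA. For both lists the genotypes did not overlap within a location, and the smallest gap was that of the macrophage list in DA. Lists of other kinds did not overlap either, so the lack of overlap alone does not set these lists apart. The mean of the cell cycle genes was 7.65 to 7.75 in WT AA and 7.76 to 7.77 in KO AA. In DA it was 7.60 to 7.63 in WT and 7.70 to 7.71 in KO. The share over all lists was not counted. The means also include 1 macrophage and 2 neutrophil genes tested through KO alone. Platelet markers had 8 of 8 positive differences, 2 of them in genes tested through KO alone, 0 calls in either fit and a median of 0.60. Their mean was 7.86 on KO AA replicate 1, 6.68 on KO AA replicate 2 and 6.20 to 6.30 in WT AA, and 6.21 to 6.51 in WT DA against 6.49 to 6.51 in KO DA. Liver markers, plasma proteins that fetal liver makes, were positive in all 6, with 0 calls in either fit: Alb 0.84 ± 0.22, Afp 0.75 ± 0.26, Fgb 0.73 ± 0.21, Ttr 0.67 ± 0.18, Apoa1 0.54 ± 0.19 and Serpina1a 0.47 ± 0.16. Erythroid markers had a median of 0.22 over 5 tested genes, 1 of them tested through KO alone, and thymocyte and lymphocyte markers of 0.32 over 7, with 0 calls. Erythroid and thymocyte medians were 0.06 and 0.18 without WT AA replicate 1. Without KO AA replicate 1 the medians were 0.60 for macrophage, 0.66 for neutrophil, 0.19 for platelet and 0.79 for acute phase genes. The part of blood cells or plasma-protein signal in the rises above was not tested.

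**Figure D3:**
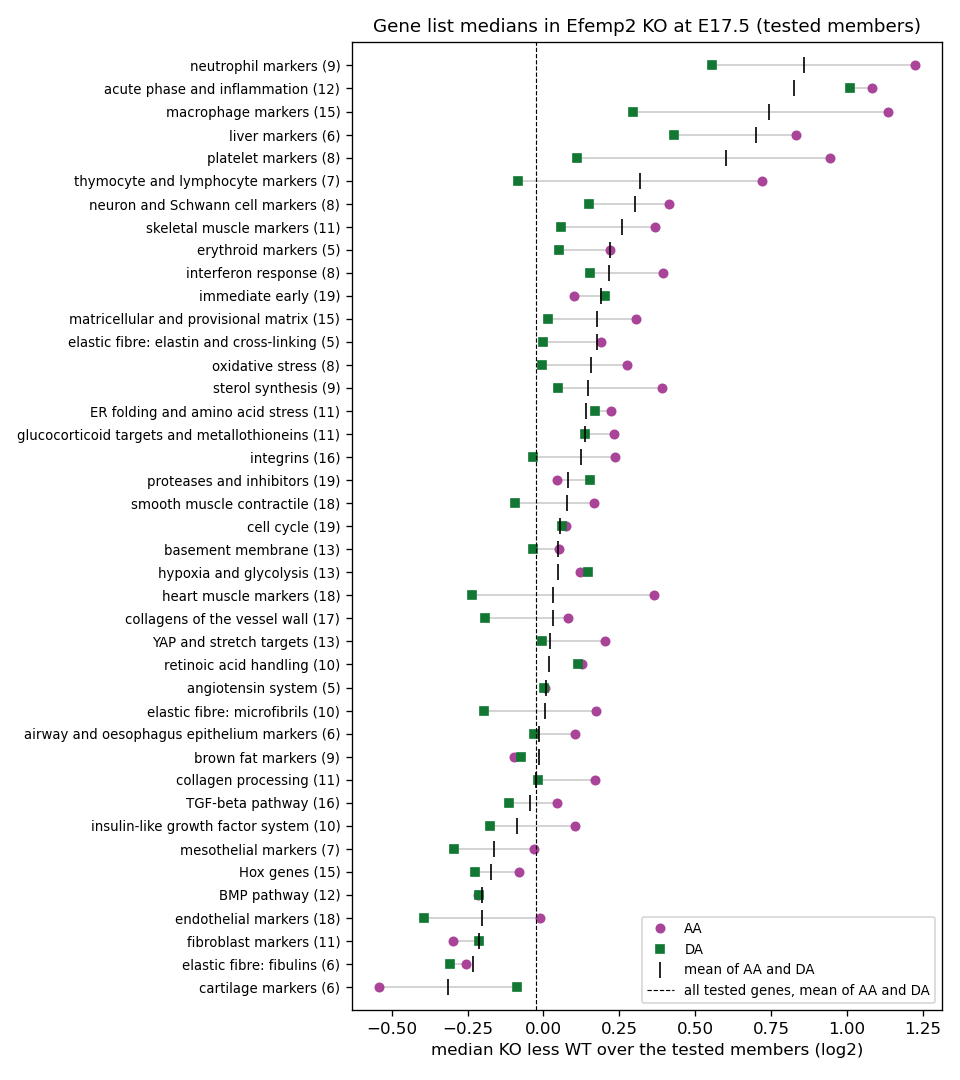
Median KO less WT difference (log2) over the tested members of each of the 41 gene lists, in AA (purple circles), in DA (green squares) and as the mean of both (black bars), with the number of tested members in parentheses and the median of all tested genes as a dashed line. Neutrophil, acute phase, macrophage, liver and platelet lists have the highest medians, 0.86 to 0.60.

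Hmox1, heme oxygenase 1, which breaks down heme and is induced by oxidants and heme, was 7.24 and 7.86 in WT AA, 10.58 and 10.13 in KO AA, 7.55 and 8.22 in WT DA, and 9.99 and 10 in KO DA. Each KO array was above each WT array by more than the replicates differed, and Hmox1 rose by 2.46 ± 0.23 (adjusted p = 0.00481, limma), or 5.5-fold in signal. It was the 1 gene called among 8 tested genes of the oxidative stress list. Of all tested genes 0.0747% were called as higher by the 8 arrays and 0.805% by the 48-array fit. The list's median was 0.16, or 0.10 without WT AA replicate 1. Txnrd1, thioredoxin reductase, differed by 0.35 ± 0.15, Nqo1, a quinone reductase, by -0.28 ± 0.13, and Srxn1, sulfiredoxin, by 0.23 ± 0.19, none of them called in either fit. Mt2, a metallothionein that binds zinc and copper, was 7.94 and 8.79 in WT AA, 10.05 and 9.85 in KO AA, 8.60 and 8.97 in WT DA, and 9.51 and 10.36 in KO DA. Its KO and WT arrays did not overlap, and its difference of 1.36 ± 0.24 was called by the 48-array fit only (adjusted p = 0.00633, against 0.0917 in the 8 arrays), and not by it without WT AA replicate 1 (adjusted p = 0.0658). Mt1 differed by 0.62 ± 0.20 and was not called (adjusted p = 0.382).

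Of the matrix genes Col8a1 rose in the 8 arrays. Col8a1, a network-forming collagen that smooth muscle makes when vessels remodel, was 4.78 and 4.68 in WT AA, 7.76 and 7.67 in KO AA, 6.77 and 7.01 in WT DA, and 8.76 and 8.86 in KO DA. Replicates agreed within 0.23, WT AA was the lowest group, and KO was above WT at each location. Col8a1 rose by 2.45 ± 0.21 (adjusted p = 0.0047, limma). Of the 17 collagens tested it was the only call of the 8 arrays (against 0.0747% of all tested genes as higher). Their median was 0.03, turning to -0.25 without WT AA replicate 1. Col11a1, a fibril-forming collagen best known from cartilage, was 5.79 and 5.38 in WT AA, 6.31 and 6.62 in KO AA, 6.80 and 6.68 in WT DA, and 7.92 and 7.70 in KO DA. It differed by 0.98 ± 0.15 and was called by the 48-array fit only (adjusted p = 0.00309, against 0.062), while without WT AA replicate 1 the 8-array fit called it too (0.0272). Col12a1, which decorates collagen fibrils, differed by 0.54 ± 0.14 and passed in neither. Thbs1, thrombospondin 1, a matricellular protein that smooth muscle makes under mechanical load, was 8.43 and 7.29 in WT AA, 9.86 and 8.94 in KO AA, 7.25 and 6.96 in WT DA, and 8.67 and 8.77 in KO DA. WT AA replicate 1 was again the highest WT array, and it lay below every KO AA array. Thbs1 differed by 1.58 ± 0.26 (adjusted p = 0.0816), and it was called without WT AA replicate 1, at 1.81 (adjusted p = 0.0235), and by the 48-array fit (0.000135). Ccn2, connective tissue growth factor, differed by 0.92 ± 0.18 and was called by the 48-array fit only (adjusted p = 0.00851, and 0.0677 without WT AA replicate 1). Of the 15 matricellular genes tested these 2 were called (against 0.805% of all tested genes), and the median of the list was 0.18, or 0.04 without WT AA replicate 1.

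Igfbp2, which binds insulin-like growth factors, was 6.26 and 7.60 in WT AA, 9.89 and 9.73 in KO AA, 7.65 and 7.81 in WT DA, and 9.59 and 9.06 in KO DA. WT AA replicate 1 was the lowest array. Igfbp2 rose by 2.24 ± 0.33 (adjusted p = 0.0449), and by 1.84 without that array (adjusted p = 0.00944). Igfbp3, another carrier of the same growth factors, differed by 1.05 ± 0.19 and was called by the 48-array fit (adjusted p = 0.000968). These were the only calls among 10 tested genes of the system (against 0.805% of all tested genes as higher in the 48-array fit). Igf1 itself differed by -0.41 ± 0.15. Among 19 tested proteases and inhibitors 0 were called by the 8 arrays and 4 by the 48-array fit, all as higher (against 0.805% of all tested genes). They were Timp1, an inhibitor of matrix metalloproteinases, at 1.35 ± 0.34, Plaur, the urokinase receptor, at 0.85 ± 0.18, Adam8, a metalloprotease of leukocytes, at 0.74 ± 0.18, and Mmp9, gelatinase B, at 0.59 ± 0.24 (adjusted p = 0.00256, 0.00278, 0.00256 and 0.0477). Mmp9 was no longer called by that fit without WT AA replicate 1. Adam8 had WT means of 4.32 in AA and 4.36 in DA, under the filter of 4.99. It was tested through KO AA alone, at 5.27, and a gene tested so is bound to be higher in KO there.

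The genes that build the elastic fibre gave 0 calls in either fit, over 5 tested genes of elastin and its cross-linking, 6 fibulins and 10 microfibril genes. Of all tested genes the 8 arrays called 0.108% and the 48-array fit 1.12%, so 0 calls here do not set these lists apart. Eln was 9.69 and 11.70 in WT AA, 11.68 and 11.57 in KO AA, 11.88 and 11.47 in WT DA, and 11.78 and 11.58 in KO DA. Apart from WT AA replicate 1 the genotypes overlapped. Eln differed by 0.46 ± 0.38 with that array (adjusted p = 0.824) and by -0.03 without it. Lox was 10.83 and 10.86 in WT AA, 11.06 and 11.02 in KO AA, 10.91 and 10.72 in WT DA, and 10.90 and 11.06 in KO DA, a difference of 0.18 ± 0.13 (adjusted p = 0.795). Of its relatives Loxl1, which acts on elastin, differed by -0.45 ± 0.15, Loxl3 by 0.0014 ± 0.15 and Loxl4 by 0.35 ± 0.14. Fbln5, the fibulin closest to fibulin-4 in its role in elastic fibres, was at 11.98 to 12.17 in WT and 11.74 to 12.04 in KO and differed by -0.16 ± 0.12. The differences of the other fibulins were -0.48 ± 0.17 for Fbln1, 0.06 ± 0.25 for Fbln2, 0.07 ± 0.20 for Fbln7, -0.30 ± 0.18 for Efemp1 and -0.42 ± 0.15 for Hmcn1. None passed, and Fbln2 and Fbln7 turned negative without WT AA replicate 1. Among the microfibril genes Fbn2, fibrillin 2, differed by 0.25 ± 0.16, Emilin2 by 0.35 ± 0.13 and Mfap2 by -0.18 ± 0.26.

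The defining genes of contractile smooth muscle, Acta2, Myh11, Tagln and Cnn1, differed by 0.03 ± 0.15, -0.04 ± 0.16, 0.19 ± 0.14 and 0.13 ± 0.17, none of them called. Of 18 tested contractile genes 0 were called by the 8 arrays and 1 by the 48-array fit (against 0.315% of all tested genes as lower). The 1 was Synpo2, an actin-binding protein of the Z-disc and dense bodies, which differed by -0.74 ± 0.17 (adjusted p = 0.00278, and 0.225 in the 8 arrays, limma). Myocd, the coactivator that drives this programme, differed by -0.42 ± 0.15 (adjusted p = 0.489). The list's median was 0.08, and -0.05 without WT AA replicate 1. Signalling lists that have been studied in aneurysm of the aorta gave few calls, as did the tested genes as a whole. The 8 arrays called 0.108% of all tested genes and the 48-array fit 1.12%, so 0 calls in lists this short do not set them apart. The TGF-beta list had 0 of 16 in either fit with a median of -0.04 (-0.08 without WT AA replicate 1), the BMP list 0 of 12 with -0.20 and 2 positive differences, and the angiotensin list 0 of 5 with 0.01 (-0.07 without that array). Ace, which makes angiotensin II, was 9.31 and 10.07 in WT AA, 9.70 and 9.70 in KO AA, 9.35 and 9.24 in WT DA, and 8.48 and 8.88 in KO DA, and the KO values in DA were below both WT values. Its difference of -0.31 ± 0.21 did not pass (adjusted p = 0.774). Of 13 YAP and stretch targets Ccn2 alone was called, by the 48-array fit (against 0.805% of all tested genes as higher). Ccn1, a relative of Ccn2, differed by 0.68 ± 0.32 with the lowest value, 7.86, on WT AA replicate 1. Of 19 immediate early genes Ier3 alone was called, by the 48-array fit (again against 0.805%), with a difference of 1.04 ± 0.18 (adjusted p = 0.00613, limma). Egr1, a transcription factor induced by stretch and injury, differed by 0.43 ± 0.24.

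The 4 called falls were Cdh12, Slc26a7, Npy1r and Trav9d-3. Cdh12, a cadherin first described in brain, was 6.42 and 5.55 in WT AA, 4.37 and 4.02 in KO AA, 5.64 and 4.67 in WT DA, and 3.10 and 3.30 in KO DA. Replicate 1 was the higher WT array at each location, and KO lay below WT in each. Cdh12 fell by 1.87 ± 0.25 (adjusted p = 0.0255, limma). Its KO means, 4.20 in AA and 3.20 in DA, lay under the filter of 4.99, so the gene was tested through its WT groups. Slc26a7, an anion transporter, was 6.96 and 7.10 in WT AA, 5.03 and 5.05 in KO AA, 6.46 and 5.96 in WT DA, and 4.88 and 4.99 in KO DA, and fell by 1.63 ± 0.18 (adjusted p = 0.0113). The KO arrays of both locations lay within a narrow range, and WT was higher in AA than in DA. Npy1r, a receptor for the neuropeptide Y that sympathetic nerves release, was 7.75 and 7.53 in WT AA, 6.19 and 6.57 in KO AA, 6.40 and 6.16 in WT DA, and 5.16 and 5.35 in KO DA, and fell by 1.14 ± 0.15 (adjusted p = 0.0255). The probe set taken for Trav9d-3, a variable segment of the T cell receptor alpha locus, was 10.28 and 10.87 in WT AA, 9.44 and 9.60 in KO AA, 11.04 and 11.07 in WT DA, and 9.65 and 9.99 in KO DA, and fell by 1.15 ± 0.16 (adjusted p = 0.0428). This symbol had 5 probe sets, and in their average the difference was -0.16 and no longer passed (adjusted p = 0.836). The T cell genes Cd3e and Cd3d differed by 0.46 ± 0.25 and 0.54 ± 0.22, and neither was called. Since only 4 falls passed, the next 6 were taken from the 48-array fit. They were Clca3a2, of a family linked to chloride channels, at -1.31 ± 0.24, Ndst3, an enzyme of heparan sulfate synthesis, at -1.14 ± 0.20, Pi15, a protease inhibitor, at -1.10 ± 0.24, Glb1l2, a relative of beta-galactosidase, at -1.05 ± 0.25, Gabrb2, a subunit of the GABA receptor, at -0.98 ± 0.23, and Glt8d2, a glycosyltransferase, at -0.84 ± 0.15. Glb1l2 and Gabrb2 were tested through WT AA alone, at means of 5.86 and 5.49, and their other group means lay under 4.99. The adjusted p of the 6 ran from 0.000801 to 0.0221 in the 48-array fit, and in the 8 arrays from 0.0816 to 0.225. Glb1l2 was not called by that fit without WT AA replicate 1 (adjusted p = 0.129).

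The rises were likewise filled up to 15 from the 48-array fit, with Ptgs2, Itgam and S100a8, described above, and 3 others. Cstdc4 and Stfa2l1, stefin-like inhibitors of cysteine proteases, differed by 2.11 ± 0.48 and 1.76 ± 0.40, and Wfdc17, a small secreted protein of myeloid cells, by 1.90 ± 0.43 (adjusted p = 0.0289, 0.0177 and 0.00228 in that fit). Stfa2l1 was 6.09 and 6.12 in WT AA, 9.14 and 8.07 in KO AA, 6.79 and 8.32 in WT DA, and 8.48 and 8.64 in KO DA. The lowest KO array, in AA, lay below the highest WT array, in DA, so here the genotypes overlapped across locations, and the gene was not called by that fit without WT AA replicate 1 (adjusted p = 0.0587).

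Markers of the resident cell types gave few calls. The share called of all tested genes was also small, 0.108% in the 8 arrays and 1.12% in the 48-array fit, so 0 calls in a list do not set it apart. Endothelial markers had 2 of 18 positive differences, with a median of -0.20, or -0.33 without WT AA replicate 1, and 0 calls in either fit. Cdh5, the cadherin of endothelial junctions, differed by -0.48 ± 0.13, Pecam1 by -0.34 ± 0.14 and Emcn, an endothelial sialomucin, by -0.79 ± 0.23 (adjusted p = 0.0501 in the 48-array fit). Fibroblast markers had a median of -0.21 over 11 genes, and 1 was called, by the 48-array fit: Dpt, dermatopontin, a matrix protein that fibroblasts secrete, which was 11.15 and 11.06 in WT AA, 9.95 and 10.46 in KO AA, 10.61 and 10.62 in WT DA, and 9.93 and 9.90 in KO DA and differed by -0.80 ± 0.15 (adjusted p = 0.0143, and 0.0565 without WT AA replicate 1). Pdgfra and Dcn differed by -0.39 ± 0.14 and -0.21 ± 0.13. Cartilage markers had 1 positive difference among 6 tested genes, with a median of -0.31, or -0.12 without WT AA replicate 1. The positive one was Acan, aggrecan, which the aortic wall also makes. Acan differed by 0.90 ± 0.22 and Sox9 by -0.81 ± 0.25, both called by the 48-array fit (adjusted p = 0.00973 and 0.0199) and neither without WT AA replicate 1. Heart muscle markers had a median of 0.03, or 0.08 without WT AA replicate 1, and 1 call of the 48-array fit, Nppb, a natriuretic peptide, at 1.10 ± 0.32 (adjusted p = 0.0477, and 0.0658 without WT AA replicate 1), which was highest on KO AA replicate 2, the array with the most heart muscle signal, and which differed by 0.72 without that array. Neuron and Schwann cell markers had 0 calls with a median of 0.30, and mesothelial markers 0 calls with -0.16. Cell cycle genes had 0 calls among 19 with 0.05, or 0.03 without WT AA replicate 1.

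Aneurysm of the ascending aorta is known from loss of fibulin-4, as background, and the effects in AA and DA were set side by side. In AA 9 genes were called as higher (0.0747%) and 2 as lower (0.0166%), and in DA 2 as higher (0.0166%) and 0 as lower, where 562 genes had an unadjusted p under 0.05 in limma. Leaving out WT AA replicate 1 left 2 genes called in AA, and leaving out KO AA replicate 2 gave 37. The 48-array fit called 93 as higher (0.772%) and 14 as lower (0.116%) in AA, and 8 as higher (0.0664%) and 1 as lower (0.0083%) in DA. The AA rises were Lilrb4a, Col8a1, Igfbp2, Hmox1 and Clec4d, the neutrophil marker S100a9, and, named after their values were seen, Ctss, a cathepsin of macrophages, and the apolipoproteins Apoc1 and Apoc2. The AA falls were Slc26a7 and Defb2, a defensin, which passed only narrowly (adjusted p = 0.0498). The DA rises were Saa3 and Col8a1. Col8a1 was the gene called in both, at 2.98 ± 0.20 in AA and 1.92 ± 0.20 in DA, where the call held in 2 of the 8 fits that leave out 1 array. Saa3 was at 2.10 ± 0.33 in AA and 3.74 ± 0.33 in DA, Ccl2 at 2.38 and 2.67, Serpina3n at 2.60 and 2.92, Hmox1 at 2.81 and 2.11, Lilrb4a at 3.26 and 1.85, and Igfbp2 at 2.88 and 1.59. Of the falls, Cdh12 was at -1.79 and -1.96 and Slc26a7 at -1.99 and -1.27.

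The difference of the 2 effects was tested as an interaction, and 0 genes were called (limma), with 370 at an unadjusted p under 0.05. It was 0 in the 48-array fit and with array weights too. For Saa3 the DA effect was larger by 1.64 ± 0.47 and for Col8a1 the AA effect was larger, at -1.06 ± 0.28 for DA less AA, both with an adjusted p of 0.983. The median of the macrophage list was 1.13 in AA and 0.29 in DA, of the neutrophil list 1.23 and 0.55, of the platelet list 0.94 and 0.11, and of the acute phase list 1.08 and 1.01, where all tested genes had -0.03 and -0.03. Without WT AA replicate 1 the AA medians were 0.66 for macrophage, 1.01 for neutrophil, 1.07 for platelet and 0.99 for acute phase genes. Of the 97 genes higher in the 48-array fit, 81 had the larger difference in AA. The same share over all tested genes was not taken, and the count does not stand in for the interaction test, which called 0 genes. WT AA replicate 1, which stood apart, and the KO arrays with the most platelet and the most heart muscle signal are AA arrays. Other tissue signal was also seen in DA, where replicate 2 of WT and of KO had the highest neuron means. KO DA replicate 2 had the highest skeletal muscle mean as well, 7.13 against 6.18 in KO DA replicate 1. The 2 KO AA arrays correlated at 0.972 over tested genes, the highest of any pair. Without WT AA replicate 2, which leaves replicate 1 alone in its group, 39 genes were called in the interaction, and without WT AA replicate 1 there were 0.

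**Figure D4:**
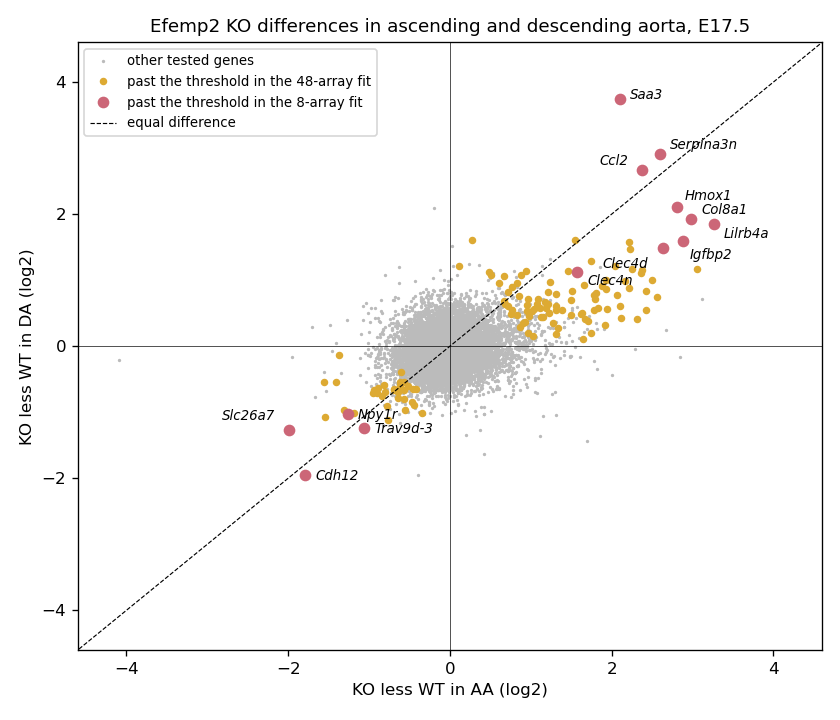
KO less WT difference (log2) of each tested gene in AA (horizontal) against DA (vertical), with the 13 genes called by the 8 arrays in red and named, those called by the 48-array fit alone in yellow, and equal differences as a dashed line. Most yellow and red rises lie below the line, with a larger difference in AA, while Saa3, Ccl2 and Serpina3n lie above it, with Saa3 at 2.10 in AA and 3.74 in DA.

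The Eln and Lox knockouts at E17.5 lack other parts of the same fibre, elastin and its cross-linking enzyme, and they were used to ask which changes differ in Efemp2 KO. The differences of effects were tested in the fit to all 48 arrays, where each KO is set against the WT of its own model. Efemp2 KO differed from Eln KO in 2 genes (0.0166%, limma). One was Eln itself, deleted in the other model. The other was Ccl2, which differed by 2.52 in Efemp2 KO and 0.24 ± 0.30 in Eln KO, a gap of 2.29 ± 0.42 (adjusted p = 0.0344). That call held in 5 of the 16 fits that leave out 1 array of the 2 models, where its adjusted p ran up to 0.171. Serpina3n, Lilrb4a and Hmox1 were next to it, at -0.13, -0.27 and 0.39 in Eln KO, and their gaps of 2.89, 2.82 and 2.06 just missed the threshold (adjusted p = 0.0508 each). So did that of Ccl9, a chemokine gene taken up below, which was at 0.10 in Eln KO with a gap of 1.475 (adjusted p = 0.0508). Col8a1 and Igfbp2 were also high in Eln KO, at 2.52 ± 0.25 and 1.57 ± 0.24, with gaps of -0.08 ± 0.35 and 0.67 ± 0.34. Npy1r and Slc26a7 were at -1.07 and -1.13 in Eln KO. Against Lox KO the 1 gene called was Lox (0.0083%), deleted in that model. The values in Lox KO were 2.27 for Col8a1, 1.81 for Serpina3n, 1.52 for Hmox1, 1.29 for Lilrb4a, 1.21 for Ccl2, 0.76 for Saa3 and 1.60 for Thbs1, against 1.58 for Thbs1 in Efemp2 KO and values given above for the others. The largest of these gaps was 2.16 ± 0.58, for Saa3, with an adjusted p of 0.801. A gap that misses the threshold does not show that the models act alike. The median of the acute phase list was 0.83 in Efemp2 KO, 0.14 in Eln KO and 0.57 in Lox KO, and of the macrophage list 0.74, 0.05 and 0.38. Without WT AA replicate 1 the Efemp2 KO medians were 0.87 and 0.44.

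In the Efemp2 model itself, the E17.5 effect was set against that at P1. The E17.5 effect less the P1 effect had a median of -0.18 over all tested genes, so differences between the ages are given less that shift and P1 effects less their own median. Of the tested genes 229 were called (1.9%), 14 with a higher and 215 with a lower E17.5 effect before the shift was taken off, and the count was 11 (0.0913%) after cyclic loess and 0 in a fit to the 16 arrays alone. Among named genes the rises of Ccl2 and Ccl9, a chemokine of myeloid cells, and the fall of Cdh12 were called as differing between the ages both before and after cyclic loess. Without the filter Ccl2 and Ccl9 were not called, and neither was Cdh12 after median centring. Each of these calls was also lost in some of the fits that leave out 1 array. With the E17.5 values as above, Ccl2 was at 2.52 at E17.5 and 0.65 ± 0.30 at P1, and Cdh12 at -1.87 and -0.17 ± 0.28. Ccl9 was 5.14 and 6.03 in WT AA, 8.15 and 7.35 in KO AA, 6.15 and 6.13 in WT DA, and 7.02 and 7.25 in KO DA on the E17.5 arrays, a difference of 1.58 ± 0.29 that the 48-array fit called (adjusted p = 2.13e-05), against 0.25 ± 0.21 at P1. Ahnak2, a large scaffold protein, was also called both ways, with 1.46 ± 0.16 at P1 and an E17.5 effect lower than that by 1.44. Col8a1, Igfbp2, Thbs1, Saa3 and Serpina3n were at 3.29, 2.27, 2.40, 2.03 and 2.11 at P1, and none of them differed between the ages beyond the threshold.

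**Figure D5:**
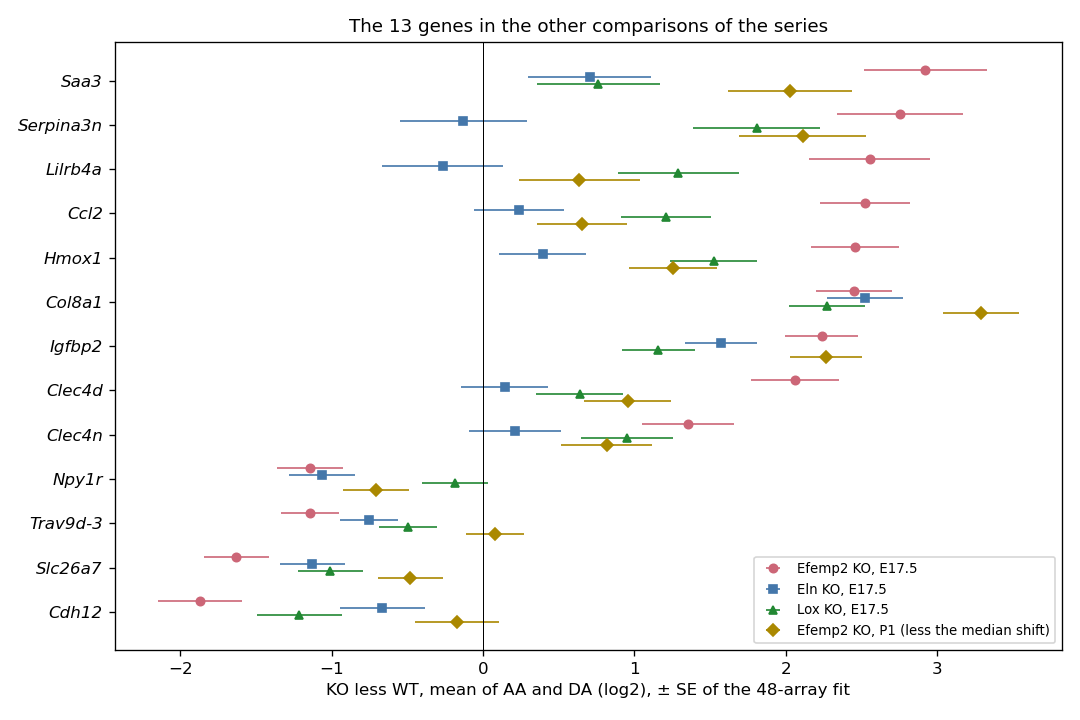
KO less WT difference (log2, mean of AA and DA) of the 13 called genes in Efemp2 KO at E17.5 (red circles), Eln KO at E17.5 (blue squares), Lox KO at E17.5 (green triangles) and Efemp2 KO at P1 (yellow diamonds, less the median shift), with standard errors of the 48-array fit. Col8a1 lies between 2.27 and 3.29 in all 4, while Serpina3n, Lilrb4a, Ccl2 and Hmox1 lie near 0 in Eln KO, between -0.27 and 0.39.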

How the data were processed

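Gene expression in pooled mouse aorta was measured on Affymetrix arrays. The values used are the series' deposited log2 values, which the authors made by RMA in Affymetrix Expression Console, per the submitters' processing notes; versions, array name and build are not given in the sources used here. RMA corrects background, sets the arrays processed together to one distribution and summarises probes on the log2 scale. A shift shared by most genes would be largely removed among such arrays. The E17.5 less P1 effect still had a median of -0.18, and whether all 48 arrays were processed as 1 set was not tested. Array medians of the 8 arrays ran from 4.36 to 4.47. The number of arrays limits the precision.

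Of 41345 probe sets, 23521 carried 1 gene symbol in the platform table, 1814 several and 16010 none. Probe sets with 1 symbol gave 22180 genes, each by its brightest probe set on average, and 23328 of them matched RefSeq by gene ID. A gene was tested if a group mean reached 4.99, the median of the probe sets with 1 symbol on the 8 arrays, which left 12049 genes. A gene high in 1 group alone could pass this filter through that group.

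The main fit was limma 3.58.1 (R 4.3.3) on the 8 arrays with location and genotype, moderated variances and Benjamini-Hochberg adjustment at 0.05. Effects within AA and DA and their difference came from a fit with 4 group means, and differences between models or ages from a fit with 24 group means on all 48 arrays. The procedure was tested on simulated data.

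Genes were named by a rule: the 15 rises and 10 falls of largest size past the threshold with one sign in both locations, filled from the 48-array fit, up to 5 each way in AA, in DA and in each difference of effects, and for each of 41 lists its called and its 5 largest members, or all members of a short list. Predicted genes, receptor families for smell and small RNAs were skipped. The lists hold 562 genes, of which 514 had a probe set and 456 were tested. The members and lists were chosen with earlier results of these data known. Alternatives covered scaling, filter, probe set choice, variance prior, array weights, replicate blocks (statmod 1.5.0 for the random block), the arrays in the fit and leaving out each array. In their deviations from the group means, same-numbered KO and WT arrays correlated at 0.06 in AA and -0.14 in DA, and same-numbered AA and DA arrays at 0.26 in WT and -0.08 in KO, so the numbers were not taken as pairs in the main fit. KO AA and WT DA arrays correlated at 0.22, and WT AA and KO DA arrays at -0.07.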

Additional observations from a re-analysis of the deposited data

Results flagged for a closer look

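Differences between models and ages are those tested in the limma fit to all 48 arrays. Against the Eln model, the effect on Eln was higher by 6.90 in Efemp2 KO, and against the Lox model that on Lox by 2.67, each the gene deleted in the other model. The effect on Ccl2 was higher by 2.29 than in Eln KO.

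Between ages, and less the median shift, the effect at E17.5 was above that at P1 by 1.91 for Ccl2, 1.62 for Ccr2, a chemokine receptor of monocytes, 1.36 for Ccl9, 1.29 for Cxcr2 and 1.28 for Tarm1, a receptor of myeloid cells. The gap was -1.76 for Ndufa4l2, a mitochondrial protein induced in hypoxia, -1.67 for Cdh12, -1.44 for Ahnak2, -1.42 for Frzb, a secreted Wnt antagonist, and -1.35 for Mxi1, a repressor that opposes Myc. Of these, Ccl2, Ccl9, Cdh12 and Ahnak2 were also called after cyclic loess, and none was called in a fit to the 16 arrays of the Efemp2 model alone.

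Probe sets without a single gene symbol lie outside the comparison of genes. Of 5654 such probe sets above the filter, 1 was called (0.0177%), probe set 17356447, with a KO less WT difference of -3.39 ± 0.26 (adjusted p = 0.00554, limma). It was 7.98 and 9.11 in WT AA, 5.28 and 5.20 in KO AA, 8.99 and 9.44 in WT DA, and 5.80 and 5.69 in KO DA, so the genotypes were far apart at both locations. In Efemp2 KO at P1 it lay at 5.13 to 5.66, and on the 40 arrays of the series that are not Efemp2 KO at 7.48 to 9.80. Which transcript it measures is not known from the tables used here.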

How the results depend on the processing

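In the 8 arrays the mean effect had 6 to 10 higher and 3 to 4 lower calls, with 9 to 13 of the 13 main calls among them, without the filter, with cyclic loess, median centring, trended robust variances or averaged probe sets. Array weights gave 124 and 80, the 48-array fit 97 and 38, and that fit less WT AA replicate 1, added after seeing the data, 54 and 38. Leaving out WT AA replicate 1 and KO AA replicate 2 together, also added, gave 10 and 2. Leaving out each array gave 2 to 10 higher, lowest without KO DA replicate 1, and 0 to 6 lower. Calls in AA were 11, and 4 without the filter, 4 with array weights, 107 in the 48-array fit, 28 in it without WT AA replicate 1, 40 without both AA arrays, and 1 to 216 leaving out each array, highest without WT AA replicate 2. Calls in DA were 2, and 4, 9, 15 and 5 with array weights, the 48-array fit, that fit without WT AA replicate 1 and without both AA arrays, and 0 to 4 leaving out each array. The interaction gave 0 to 39. Calls against Eln KO were 2, and 1 without the filter, 7 with cyclic loess, 9 median centred, 7 with averaged probe sets, 9 in only the 16 arrays and 1 to 16 leaving out each array, highest without KO AA replicate 2. Those against Lox KO were 1, and 0 in only the 16 arrays and 1 to 3 leaving out each array. Those against P1 were 229, and 70 without the filter, 11 with cyclic loess, 19 median centred, 0 in only the 16 arrays and 8 to 882 leaving out each array, lowest without KO DA replicate 1 and highest without P1 WT DA replicate 1. The causes were not tested.

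With the replicate number as a block the mean effect gave 14 higher and 4 lower, AA 14, DA 3, the interaction 0, and the gaps to Eln KO, Lox KO and P1 3, 1 and 248. A random block of the pools gave 6 and 3. The crossed replicate block in DA, added after seeing the data, gave 6 and 2.

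Some genes without a call changed sign. With WT AA replicate 1 and KO AA replicate 2 left out, Eln was -0.0073, Loxl3 -0.16, Fbln2 -0.25, Acta2 -0.068 and Cnn1 -0.064. In the 48-array fit without WT AA replicate 1, Eln was -0.039, Loxl3 -0.13, Fbln2 -0.23, Fbln7 -0.12, Acta2 -0.093 and Cnn1 -0.024. With array weights Loxl3 was -0.099, Fbln2 -0.15, Fbln7 -0.23 and Acta2 -0.077. Acta2 was -0.042 with cyclic loess, and Myh11 0.0032 median centred. Leaving out each array, Eln ran from -0.032 to 0.77, Loxl3 from -0.13 to 0.078, Fbln2 from -0.24 to 0.23, Fbln7 from -0.025 to 0.28, Mfap2 from -0.50 to 0.0037, Acta2 from -0.086 to 0.11, Myh11 from -0.13 to 0.095 and Cnn1 from -0.022 to 0.23.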
